A study of Drosophila melanogaster with 24 samples.

Results

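The odorant receptor genes of *Drosophila melanogaster* were examined in the Cap-G binding profiles of larval brain cells. They were chosen by name, as the protein-coding genes of a Release 6 gene table whose symbol is Or followed by a number and a lower-case letter. This gave 59 genes of 13922 protein-coding genes, by a rule that uses no measured value. The co-receptor *Orco* and the pseudogene *Or98P* have other symbols and are not among the 59.

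Each odorant receptor gene encodes a membrane protein that joins the co-receptor *Orco* to form an odorant-gated ion channel. An olfactory neuron usually uses a single such receptor, and the choice sets which smells it answers and which glomerulus of the antennal lobe its axon reaches. The cell bodies of these neurons sit in the antenna, the maxillary palp or the larval dorsal organ, outside the brain, and the genes are best known from those organs. Cap-G is a subunit of condensin, the complex that compacts chromosomes for division.

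Binding was measured by Targeted DamID, in which a protein fused to the bacterial Dam methylase marks GATC sites near the places it binds, in cells picked by a GAL4 driver. Cap-G-Dam was expressed in brains of L3 larvae by *wor-GAL4*, which drives in neural stem cells (NSCs), by *elav-GAL4*, which drives in neurons of all ages including newborn ones (elav neurons), or by *nSyb-GAL4*, which drives once neurons are mature (nSyb neurons). Every group also carried *tub-GAL80ts*, which held Dam back at 18°C until larvae were moved to 29°C for 24 h, and each driver had its own Dam-only control. Each of these groups had 2 samples of 30 brains, and the authors averaged the samples of a driver into 1 track of log2 Cap-G-Dam/Dam ratios.

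The cells of *elav-GAL4* include those of *nSyb-GAL4*, so the neuronal tracks are not of separate populations. Each track holds 373710 fragments between neighbouring GATC sites, with a median length of 196 bp. Because 1 averaged track stands for each cell type, no spread between replicates could be had, and all values below are the authors' averaged values with no test and no error. A ratio above 0 means more methylation with Cap-G-Dam than with Dam alone, and a value below 0 may reflect little Cap-G or much Dam-only methylation. Each gene was given the average of the log2 ratios of its fragments, each weighted by the length it shares with the gene. Its percentile is its rank among the 13922 protein-coding genes of the same track. Where 3 values stand together without labels, they are in the order NSCs, elav neurons, nSyb neurons. Positions are those of Release 6 (BDGP6).

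The 59 genes lie on 2L (10 genes), 2R (15), 3L (11), 3R (15) and X (8), with 0 on the fourth chromosome. They are short, from 1198 to 3956 bp with a median of 1462 bp, against a median of 2163 bp for all protein-coding genes. All 59 met fragments, from 2 to 30 each with a median of 8. *Or30a*, *Or33a*, *Or85b* and *Or94b* met fewer than 5.

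The odorant receptor genes sat above most other genes in NSCs and closer to them in elav neurons. In median log2 ratio they had 0.15 in NSCs, 0.13 in elav and 0.14 in nSyb neurons, where all protein-coding genes had medians of -0.00, 0.05 and 0.00. In NSCs 51 of the 59 were above 0, against 48.4% of all protein-coding genes. In elav neurons 39 were above 0, against 57.7%, and in nSyb neurons 46, against 49.5%. The median member stood at percentile 82.1 in NSCs, 60.9 in elav and 70.5 in nSyb neurons. Against the 5939 protein-coding genes of 1 to 3 kb, which are closer in length, the median percentiles were 77.9, 60.9 and 68.4.

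**Figure D1:**
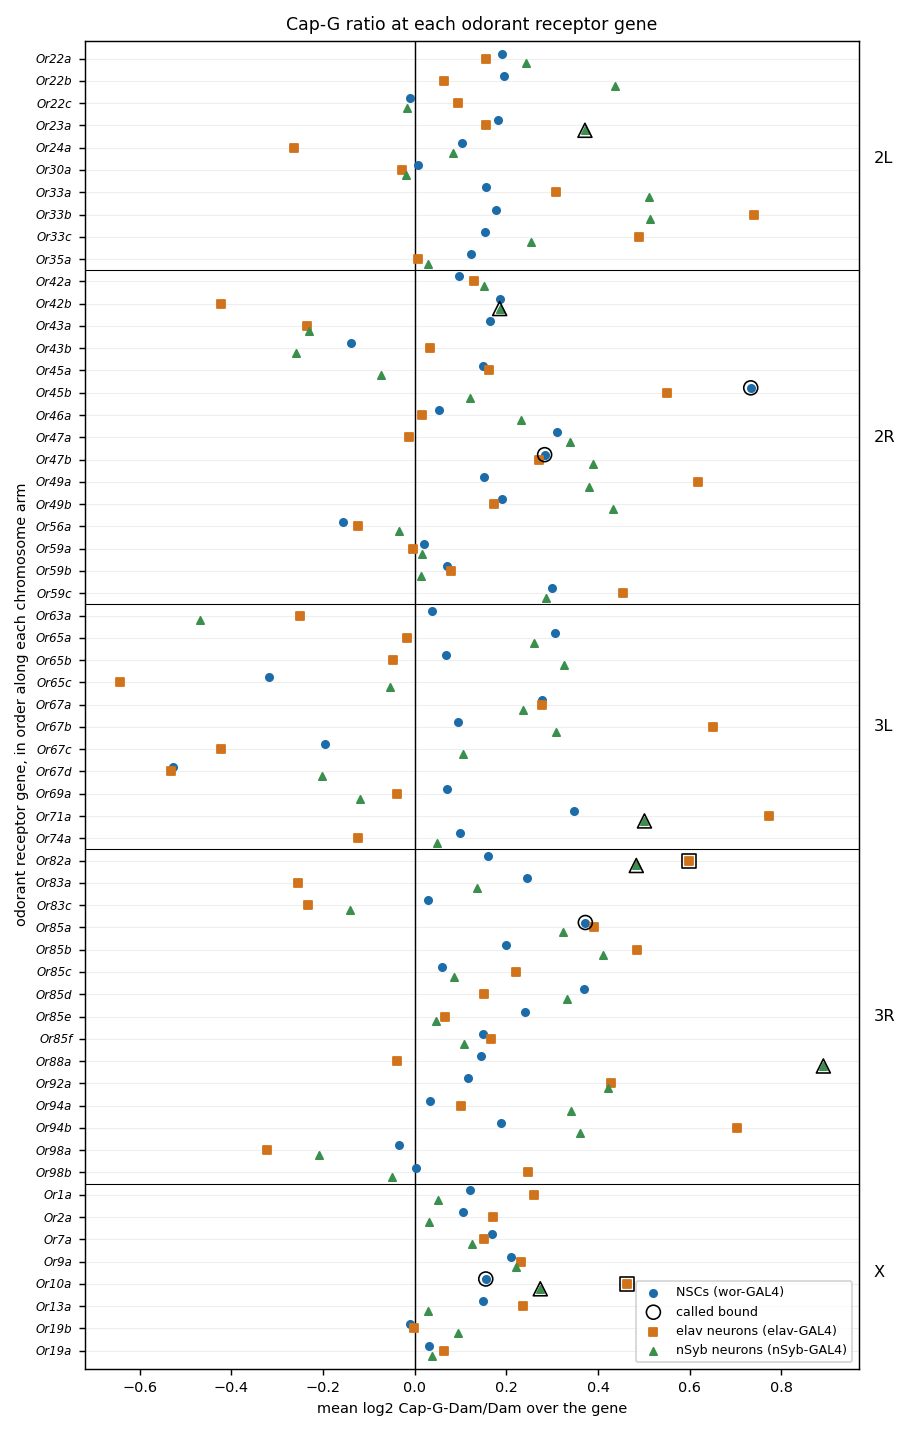
Mean log2 Cap-G-Dam/Dam over each of the 59 odorant receptor genes (x axis) in NSCs (circles), elav neurons (squares) and nSyb neurons (triangles), in order along each chromosome arm (right margin), with a black outline where a gene was called bound in that track. Most points lie to the right of 0, with Or45b at 0.73 in NSCs and Or88a at 0.89 in nSyb neurons the farthest right of their tracks, and Or67d at -0.53 the farthest left in NSCs.

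The higher level was found over the bulk of the family in NSCs and nSyb neurons, and less so in elav neurons. The middle 50% of members lay between 0.05 and 0.19 in NSCs, between -0.03 and 0.27 in elav neurons and between 0.02 and 0.34 in nSyb neurons. For all protein-coding genes the limits were -0.12 and 0.10, -0.14 and 0.24, and -0.17 and 0.17. To compare tracks of unequal spread, each gene value was also scaled, as its distance from the median of protein-coding genes divided by their spread (the median absolute deviation, multiplied to match an SD). A scaled value over 1 was found for 22 members in NSCs (15.5% of all protein-coding genes), 13 in elav neurons (16.5%) and 22 in nSyb neurons (15.8%). On the other side, 3 members had a scaled value under -1 in NSCs (19.8%), 10 did in elav neurons (17.8%) and 2 did in nSyb neurons (17.2%). As shares of the 59 members, those over 1 were 37.3%, 22.0% and 37.3%, and those under -1 were 5.08%, 16.9% and 3.39%. The elav shares were the nearest to those of all genes on both sides.

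**Figure D2:**
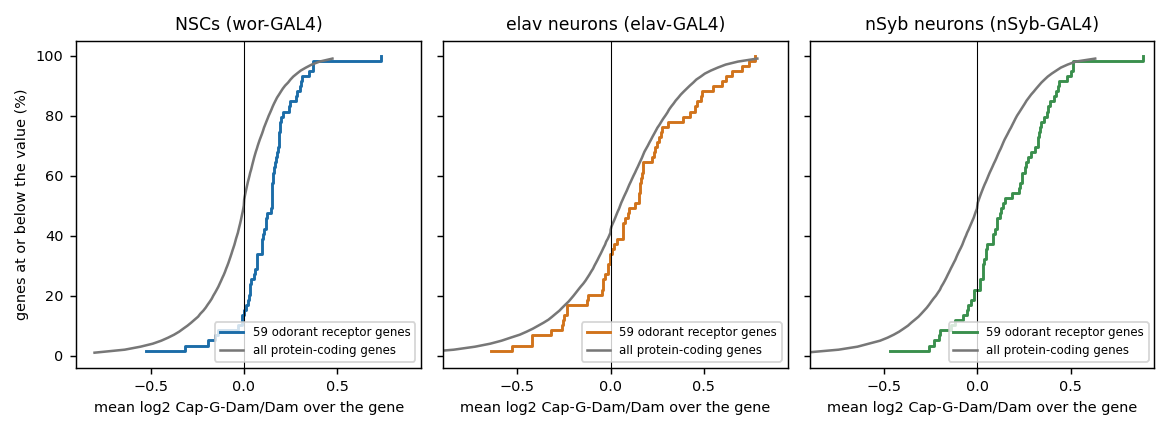
Share of genes at or below each mean log2 Cap-G-Dam/Dam value (y axis, percent), for the 59 odorant receptor genes (coloured steps) and for all 13922 protein-coding genes (grey), 1 panel for each track. The coloured curve runs to the right of the grey one over most of its length in NSCs and nSyb neurons, and the curves come together below 0 in elav neurons.

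The 59 genes met 487 different fragments, of which 75.2% were above 0 in NSCs, 68.0% in elav and 72.9% in nSyb neurons. Over all fragments these shares were 46.8%, 52.4% and 52.0%. The median value of the member fragments was 0.08 in NSCs, 0.09 in elav and 0.10 in nSyb neurons, against 0.00, 0.01 and 0.00 over all fragments. The fragments were of ordinary length, with a median of 185 bp in the members, 192 bp in the 5 kb on each side of them and 196 bp genome-wide. The 32 member fragments of 1000 bp or more differed from the others: 34.4% were above 0 in NSCs, 31.3% in elav and 46.9% in nSyb neurons. Long fragments were low genome-wide too, with 22.2%, 37.6% and 36.3% above 0.

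The ratios were higher over the genes than in the DNA around them. The gene was higher than the mean of the 5 kb on each side for 51 members in NSCs (56.8% of all protein-coding genes), 41 in elav neurons (54.7%) and 50 in nSyb neurons (54.1%). A member's median excess over its flanks was 0.12 in NSCs, 0.09 in elav and 0.17 in nSyb neurons on the log2 scale, where all protein-coding genes had 0.03, 0.03 and 0.02. The flanks themselves had median values of 0.01, 0.04 and 0.01. The family's median therefore depends on the summary used. In NSCs it was 0.08 with the unweighted median of the fragments. With 1 kb added on each side of every gene it was 0.06 in NSCs, and with 5 kb added 0.03, 0.06 and 0.03.

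Along the gene, the mean ratio of the 59 members was highest in the central of 5 equal parts of the gene in each track, at 0.20 in NSCs, 0.19 in elav and 0.21 in nSyb neurons. In the outermost parts, at the gene's edges, it was 0.07 and 0.06 in NSCs, 0.06 and 0.07 in elav neurons, and 0.14 and 0.12 in nSyb neurons. In the 500 bp just outside the gene it was -0.02 and 0.02 in NSCs, 0.03 and 0.03 in elav neurons, and 0.08 and 0.05 in nSyb neurons. Protein-coding genes of 1 to 3 kb also peaked in the central part, at 0.04, 0.07 and 0.03. The means of their outermost parts were below 0, where those of the members were above it. These means were -0.09 and -0.09 in NSCs, -0.02 and -0.02 in elav neurons, and -0.05 and -0.05 in nSyb neurons. The sign depends on the summary used. As medians, the outermost parts of the short genes had -0.02 and -0.03 in NSCs, 0.02 and 0.03 in elav neurons, and -0.001 and -0.001 in nSyb neurons. In the 500 bp just outside, the short genes had means of -0.12 and -0.12, -0.04 and -0.03, and -0.07 and -0.07, while their elav medians there were 0.01 and 0.02. The gene table used here has no strand, and the start and the end of transcription could not be told apart in these profiles.

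**Figure D3:**
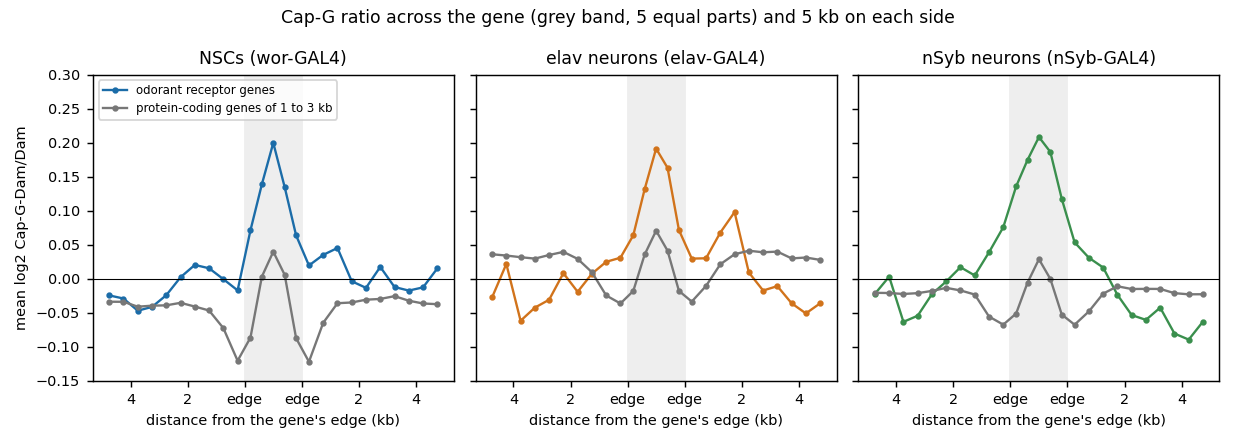
Mean log2 Cap-G-Dam/Dam (y axis) in 5 equal parts of the gene (grey band) and in steps of 500 bp up to 5 kb on each side (x axis), for the 59 odorant receptor genes (colour) and the 5939 protein-coding genes of 1 to 3 kb (grey), 1 panel for each track. The members peak at the centre of the gene near 0.20 in every panel, and the short genes have a lower central peak and dip below 0 at the gene's edges.

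The members called as bound were few, and their share was near that of other genes in NSCs and lower in elav neurons. A bound region was a run of at least 2 fragments above a high quantile of the track at a false discovery rate of 0.01%, and a gene was called by a region that overlapped it or by one up to 5 kb away with no other gene between them. This gave 4 members in NSCs (7.84% of all protein-coding genes were called), 2 in elav neurons (10.5%) and 6 in nSyb neurons (9.39%). Taken over the tracks, 9 members were called in at least 1 track, against 19.7% of all protein-coding genes. As shares of the 59 members, the counts per track were 6.78%, 3.39% and 10.2%, and among protein-coding genes of 1 to 3 kb the called shares were 5.34%, 6.62% and 7.39%. At a rate of 1% the counts were 11 (24.0%), 6 (25.3%) and 20 (26.0%), or 18.6%, 10.2% and 33.9% of the members, against 17.4%, 18.4% and 21.0% of genes of 1 to 3 kb. The member share thus lay between the backgrounds in NSCs and below both in elav neurons, at either rate. In nSyb neurons it was close to them at 0.01% and above them at 1%, with no test. With quantiles of 0.90 and above alone, 1 member was called in NSCs and 3 in nSyb neurons. The share of all genes called at that setting is not given here, so these counts cannot be set against other genes. Most members above 0 thus held no run of fragments long or high enough to be called. At 0.01%, each region at or within 5 kb of a member held at least 9 fragments, where a member met a median of 8.

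*Or45b*, a receptor gene of larval olfactory neurons, had the highest value of any member in NSCs. Its log2 ratio was 0.73 in NSCs, 0.55 in elav and 0.12 in nSyb neurons, at percentiles 99.9, 95.3 and 68.3. In NSCs all 5 of its fragments were above 0, from 0.24 to 1.34, and a region of 11 fragments at 2R:9559448-9563062 with a mean ratio of 0.48 covered the whole gene. The region also overlapped *Alp6*, an alkaline phosphatase gene, and the antisense RNA gene *CR45281*, inside which *Or45b* lies. In nSyb neurons its fragments spanned 0.07 to 0.18.

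*Or88a* stood out in nSyb neurons instead. This receptor, found in trichoid sensilla of the antenna and tuned to fly odours, had log2 ratios of 0.15 in NSCs, -0.04 in elav and 0.89 in nSyb neurons. The nSyb value was at percentile 99.9 and was the highest of any member in any track, and its 5 fragments there ran from 0.48 to 1.19. In NSCs they ran from -0.28 to 0.77 and in elav neurons from -0.34 to 0.32, with 3 of 5 above 0 in each. A region of 26 fragments at 3R:14109090-14114241, with a mean ratio of 0.69 in nSyb neurons, covered *Or88a* and reached *CG14357* and the kinesin gene *Kif19A*. Regions in NSCs lay 2245 bp and 1938 bp away on either side, over *CG12402* and *Kif19A*, and none met *Or88a* itself. The antisense RNA gene *CR44237* overlaps 1282 bp of *Or88a*, and the ratio cannot be given to either of them alone.

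**Figure D4:**
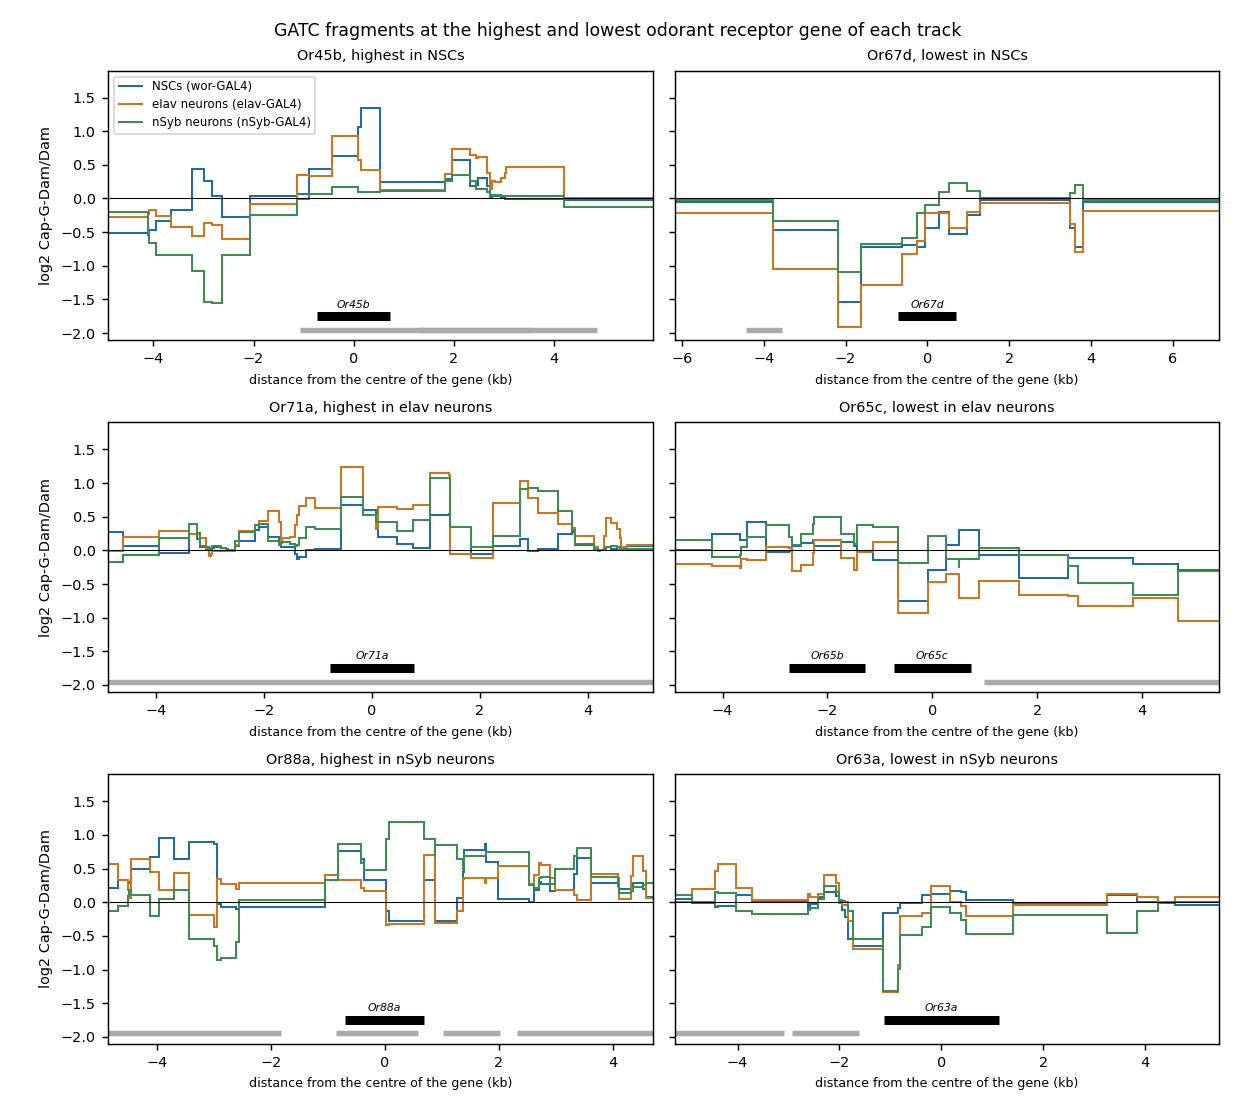
Log2 Cap-G-Dam/Dam of each GATC fragment (y axis) against distance from the centre of the gene in kb (x axis) at the highest (left) and lowest (right) odorant receptor gene of each track, in NSCs (blue), elav neurons (orange) and nSyb neurons (green). Black bars mark odorant receptor genes and grey bars other genes. Or88a has fragments up to 1.19 in nSyb neurons where those of NSCs and elav neurons dip below 0, and the tracks at Or67d dip together beside the gene.

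*Or10a* was called in all 3 tracks. It encodes a receptor for methyl salicylate in the antenna, and the gene table gives it the same span as the gustatory receptor gene *Gr10a*, X:11413467-11417422, so that its values are those of both genes. Its log2 ratio was 0.16 in NSCs, 0.46 in elav and 0.27 in nSyb neurons, with 29, 29 and 28 of its 30 fragments above 0. The NSC region, X:11417062-11420212, covered 9.13% of the span and ran on past its end. The elav region covered 58.4% of it, and in nSyb neurons 2 regions covered 48.4% and 3.77%.

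*Or82a*, whose receptor answers to geranyl acetate, was called in both neuronal tracks. Its log2 ratio was 0.16 in NSCs, 0.60 in elav and 0.48 in nSyb neurons. The regions, 3R:4255555-4257807 in elav neurons and 3R:4255501-4257807 in nSyb neurons, covered 56.8% of it and also overlapped the cuticle gene *TwdlV*. In NSCs all 10 fragments were above 0, but none over 0.41.

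The other called members were each called in 1 track. *Or47b*, a receptor for fatty acid-derived cues of other flies, was called in NSCs, where its log2 ratio was 0.28, and had 0.27 in elav neurons and 0.39 in nSyb neurons. No other gene was met by its region, 2R:11320200-11321710. *Or85a*, a receptor of antennal basiconic sensilla, was called in NSCs at 0.37 and had 0.39 and 0.32 in elav and nSyb neurons, with all 12 fragments above 0 in each track. It lies inside *Poxm*, a Pax gene, whose whole span had 0.23, 0.42 and 0.35, and regions in elav neurons lay 1581 bp and 3173 bp from *Or85a* on either side.

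*Or71a*, a palp receptor for ethylphenols, was called in nSyb neurons and was high in every track, at 0.35 in NSCs, 0.77 in elav and 0.50 in nSyb neurons. Each of its 7 fragments was above 0 in every track. It lies inside *Plp*, a centrosomal gene whose whole span had 0.07, 0.24 and 0.20. The nSyb region, 3L:15076448-15079506, covered all of *Or71a*.

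*Or23a*, expressed in antennal sensilla, was called in nSyb neurons at 0.37, against 0.18 in NSCs and 0.16 in elav neurons. The region, 2L:2651962-2656118, also met *CG33125* and the proteasome subunit-like genes *Prosbeta4R1* and *Prosbeta4R2*. *Or42b*, a receptor for fruit esters that guides attraction in larvae and adults, was called in nSyb neurons through a region at 2R:5796085-5797910 that covered 54.3% of it. That region overlaps the tetraspanin gene *Tsp42A* as well and lies 3118 bp from *Or42a*.

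Patterns over the 3 tracks were also counted without regard to calling. Members above 0 in all 3 tracks numbered 35, against 31.9% of protein-coding genes, and 4 members were above 0 in none (*Or56a*, *Or65c*, *Or67d* and *Or98a*), against 27.8%. The scaled value was over 1 in every track for 6 members, or 10.2%, against 5.11% of protein-coding genes and 6.40% of those of 1 to 3 kb. These were *Or33b*, *Or59c*, *Or71a*, *Or85a*, *Or85b* and *Or94b*. Their sites of expression differ, with *Or59c* and *Or71a* in the palp, *Or85a* and *Or85b* in the antenna, *Or33b* in larva and antenna, and *Or94b* in the larva.

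The lowest member in NSCs was *Or67d*, the receptor for the male pheromone cis-vaccenyl acetate. Its log2 ratio was -0.53 in NSCs, -0.53 in elav and -0.20 in nSyb neurons, at percentiles 3.32, 6.13 and 21.8. None of its 6 fragments was above 0 in NSCs or elav neurons, and 2 were in nSyb neurons. Its flanks were low as well, at -0.30, -0.52 and -0.17, so the gene stood below its surroundings in NSCs and near them in both neuronal tracks.

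*Or65c*, next to *Or65a* in trichoid neurons, was the lowest member in elav neurons at -0.64, with -0.32 in NSCs and -0.05 in nSyb neurons. *Or67c*, a basiconic receptor, had -0.20 in NSCs, -0.42 in elav and 0.11 in nSyb neurons, with 0, 0 and 7 of 9 fragments above 0. Its flanks were lower than the gene in each track, at -0.44, -0.84 and -0.05. *Or63a*, a larval receptor, was the lowest member in nSyb neurons at -0.47, and had 0.04 in NSCs and -0.25 in elav neurons.

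The other low members were near the bottom of a single track or 2. *Or56a*, the receptor for geosmin, had -0.16 in NSCs, -0.12 in elav and -0.03 in nSyb neurons. *Or43b* had -0.14, 0.03 and -0.26, and it shares 745 bp with *Cul1*, a ubiquitin ligase gene whose span had -0.32, -0.24 and -0.62. *Or98a* had -0.03, -0.32 and -0.21 and lies inside *CG34353*, which had -0.06, -0.26 and -0.27. *Or43a*, a trichoid receptor, had 0.17 in NSCs and -0.23 in both neuronal tracks, but -0.07 in NSCs with 5 kb added on each side and 0.07 in elav neurons as the unweighted median of its fragments.

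The family has 7 tandem clusters, which hold 16 members with gaps of at most 10 kb between neighbours. They are *Or22a* and *Or22b*, *Or33a* to *Or33c*, *Or42a* and *Or42b*, *Or59b* and *Or59c*, *Or65a* to *Or65c*, *Or85b* and *Or85c*, and *Or94a* and *Or94b*. Neighbours in a cluster were about as far apart in value as other pairs of members. The 9 neighbour pairs differed by a median of 0.14 in NSCs, 0.37 in elav and 0.19 in nSyb neurons on the log2 scale, and other pairs of members by 0.13, 0.30 and 0.23.

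The Or33 cluster was the highest of the 7 as a whole in both neuronal tracks, with whole-cluster values of 0.13, 0.45 and 0.40. Within it, *Or33a* had 0.16 in NSCs, 0.31 in elav and 0.51 in nSyb neurons. *Or33b*, in the middle, had 0.18, 0.74 and 0.51. *Or33c*, which the palp co-expresses with *Or85e*, had 0.15, 0.49 and 0.25. The NSC values lay between 0.15 and 0.18, while *Or33b* stood 0.43 above *Or33a* in elav neurons.

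The Or94 cluster, used by larval neurons and lying inside the Na+/H+ exchanger gene *Nha2*, split the tracks in another way. *Or94a* had 0.03 in NSCs, 0.10 in elav and 0.34 in nSyb neurons, and *Or94b* had 0.19, 0.70 and 0.36. The pair thus differed by 0.60 in elav neurons and by 0.02 in nSyb neurons. *Or94b* rests on 3 fragments.

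In the Or65 cluster the values were lower with each gene along the chromosome in NSCs and elav neurons. *Or65a*, a receptor linked to the lasting effect of cis-vaccenyl acetate on aggression, had 0.31 in NSCs, -0.02 in elav and 0.26 in nSyb neurons. *Or65b* had 0.07, -0.05 and 0.32. With *Or65c* at -0.32, -0.64 and -0.05, the members spanned 0.62 in NSCs, 0.63 in elav and 0.38 in nSyb neurons, the widest range of any cluster in each track.

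The Or42 cluster was even in NSCs and nSyb neurons and split in elav neurons. *Or42a*, a receptor of the palp and the larva, had 0.10, 0.13 and 0.15 in NSCs, elav and nSyb neurons. *Or42b* had 0.19, -0.42 and 0.19, with 0 of its 7 fragments above 0 in elav neurons. The pair differed by 0.09 in NSCs, 0.55 in elav and 0.04 in nSyb neurons.

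The remaining clusters were above 0 at both members. *Or22a*, a receptor for fruit esters, had 0.19, 0.15 and 0.24, and *Or22b* had 0.20, 0.06 and 0.44. *Or59b*, for methyl acetate, had 0.07, 0.08 and 0.01, and *Or59c* had 0.30, 0.45 and 0.29, in the gene *CG43795* that holds them both and had 0.02, 0.00 and -0.24. *Or85b*, for heptanone, had 0.20, 0.49 and 0.41 on 4 fragments (-0.02 in nSyb neurons with 5 kb added on each side), and *Or85c*, used in the larva, had 0.06, 0.22 and 0.08.

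**Figure D5:**
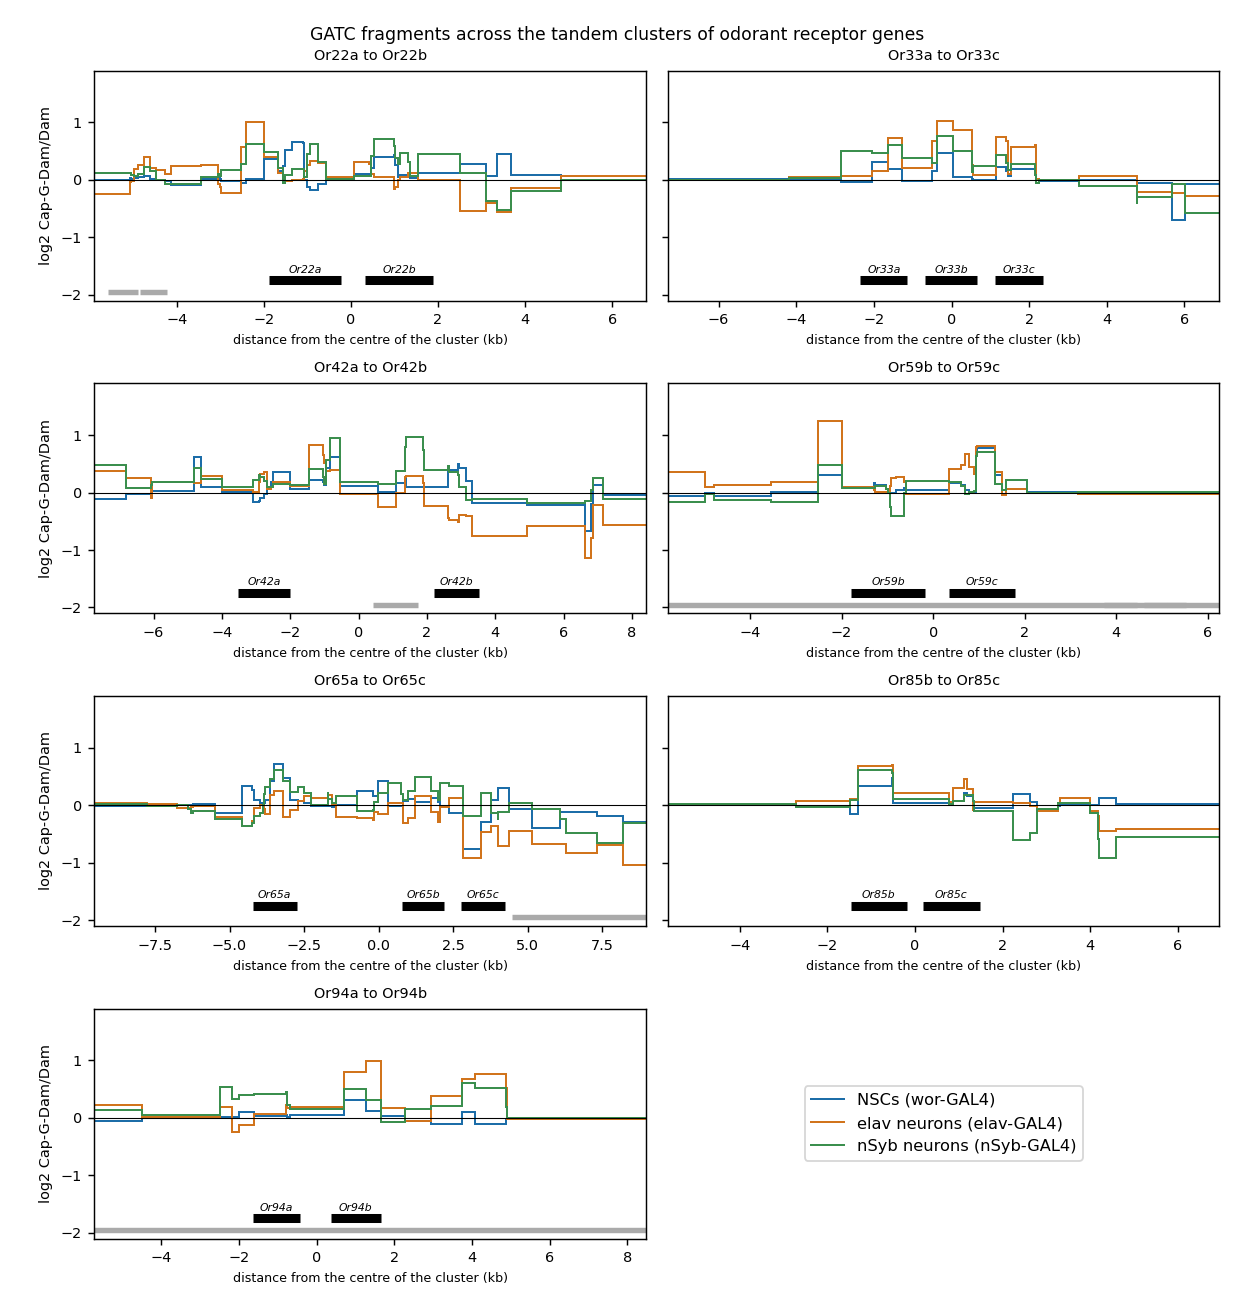
Log2 Cap-G-Dam/Dam of each GATC fragment (y axis) against distance from the centre of the cluster in kb (x axis) across the 7 tandem clusters, in NSCs (blue), elav neurons (orange) and nSyb neurons (green). Black bars mark odorant receptor genes and grey bars other genes. High fragments lie over some receptor genes, as over Or33b and Or94b in elav neurons, and also beside them, as next to Or22a and Or59b (1.24) in elav neurons, and the elav track is below 0 over Or42b and Or65c.

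The comparison between cell types asked how the family differed between stem cells, neurons of all ages and mature neurons. On the log2 scale the members' own difference was close to 0, with medians of 0.00 from NSCs to elav neurons, -0.01 from elav to nSyb neurons and 0.01 from NSCs to nSyb neurons, while all protein-coding genes had 0.06, -0.06 and 0.01. The spread of all genes differs between tracks, at 0.17 in NSCs, 0.28 in elav and 0.26 in nSyb neurons, and an equal log2 value therefore ranks higher in NSCs. Relative to other genes, the members were lower in elav neurons. The median scaled difference was -0.50 for elav neurons minus NSCs, 0.21 for nSyb minus elav neurons and -0.17 for nSyb neurons minus NSCs. These 3 comparisons share tracks and are not independent.

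From NSCs to elav neurons, 42 members had a lower scaled value and 17 a higher one. The scaled difference was under -1 for 16 members (12.1% of protein-coding genes) and over 1 for 5 (16.3%). From elav to nSyb neurons it was over 1 for 16 members (12.5%) and under -1 for 1 member (12.5%), which was *Or45b* at -1.31. From NSCs to nSyb neurons it was over 1 for 6 members (14.1%) and under -1 for 5 (11.1%), shares close to those of all genes. The lowest of a member's 3 percentiles was that of elav neurons for 34 of the 59 (34.3% of protein-coding genes), that of NSCs for 12 (32.7%) and that of nSyb neurons for 13 (32.9%).

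The members with the most negative scaled difference from NSCs to elav neurons were *Or42b* (-2.82), *Or45b* (-2.66) and *Or83a* (-2.58). In percentile points they differed by -78.0, -4.58 and -75.4. The smaller spread of genes in NSCs enlarges the scaled value of a very high gene such as *Or45b*. *Or83a*, a larval receptor inside *CG1172*, had log2 ratios of 0.24, -0.25 and 0.14 in NSCs, elav and nSyb neurons, and -0.09 in NSCs with 5 kb added on each side. The most positive were *Or67b* (1.56), *Or33b* (1.37) and *Or94b* (1.18). *Or67b* had 0.09, 0.65 and 0.31, and its end overlaps 518 bp of *Cyp40*.

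From elav to nSyb neurons the most positive were *Or88a* (scaled difference 3.80), *Or42b* (2.41) and *Or65c* (2.26). From NSCs to nSyb neurons the most positive were *Or88a* (2.59), *Or67d* (2.40) and *Or65c* (1.71), and the latter pair were still below 0 in nSyb neurons. The most negative from NSCs to nSyb neurons were *Or45b* (-3.97), *Or63a* (-2.07) and *Or43a* (-1.90). Across the 59 genes Spearman's rho was 0.49 for NSCs against elav neurons, 0.57 for elav against nSyb neurons and 0.61 for NSCs against nSyb neurons. For all protein-coding genes it was 0.64, 0.63 and 0.65. These are descriptions over genes that share fragments and tracks.

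The sense organ that uses a receptor gave groups that can be set side by side (58 of the 59 members are in a group, and *Or98b* is in none). The 7 palp receptors were each above 0 in all 3 tracks, with medians of 0.24 in NSCs, 0.15 in elav and 0.25 in nSyb neurons. Their highest was *Or85d* in NSCs, with 0.37, 0.15 and 0.33, and *Or71a* in both neuronal tracks. Their lowest was *Or46a* in NSCs and elav neurons, with 0.05, 0.02 and 0.23, and *Or85e* in nSyb neurons, with 0.24, 0.07 and 0.05. *Or46a* lies 1331 bp from an nSyb region over *gem* and *CG12917*.

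The 12 trichoid receptors, several of them tuned to pheromones, had medians of 0.09, -0.03 and 0.07. Of these, 9 were above 0 in NSCs, 4 in elav and 8 in nSyb neurons. Their scaled values were lower in elav neurons than in NSCs for 11 of 12 and higher in nSyb than in elav neurons for 11 of 12. The family as a whole went the same way, with 42 and 38 of its 59 members. Among the 13922 protein-coding genes these counts were 6612 and 6711. The 12 include the neighbours *Or65a* to *Or65c* and the copies *Or19a* and *Or19b*. The trichoid members include the highest of the family in nSyb neurons (*Or88a*) and its lowest in NSCs (*Or67d*) and elav neurons (*Or65c*).

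The 25 antennal basiconic receptors, which mostly answer food odours, had medians of 0.16, 0.17 and 0.24, with 21, 19 and 21 above 0. Among them *Or47a* had 0.31 in NSCs, -0.01 in elav and 0.34 in nSyb neurons, and *Or49a*, a receptor for odours of parasitoid wasps, had 0.15, 0.62 and 0.38. *Or7a* had 0.17, 0.15 and 0.13, with an NSC region 2191 bp away over other genes. Receptors used in the larva and the adult (12 genes) had medians of 0.15, 0.20 and 0.25, and those known only from the larva (13 genes) 0.10, 0.09 and 0.05. Scaled values were higher in nSyb than in elav neurons for 6 of these 12 and 6 of these 13. They were higher for 16 of the 25 basiconic and 4 of the 7 palp receptors, so the groups were not alike in this. A gene may be in several of these groups, and the groups were not tested against each other.

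The 18 members that overlap another gene, 13 of them inside it, share its fragments, and the ratio cannot be assigned to either gene. The 41 members that overlap no other gene had medians of 0.12 in NSCs, 0.09 in elav and 0.11 in nSyb neurons, with 35, 25 and 31 above 0. Host genes were often lower than the receptor inside them. *CG3777*, which holds *Or1a*, had -0.01, 0.09 and 0.08 against 0.12, 0.26 and 0.05 for *Or1a*.

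*Or19a* and *Or19b*, receptors for citrus odours, are copies of each other in opposite order. The lengths of 7 of 7 inner fragments were the same in mirrored order, so short reads may not tell them apart and their values are uncertain. *Or19a* had 0.03, 0.06 and 0.04 and *Or19b* -0.01, -0.00 and 0.09.

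The 21 members not named by the rule on high, low, bound or clustered genes lay between. They ranged from -0.01 to 0.28 in NSCs with 19 above 0, from -0.26 to 0.43 in elav neurons with 14 above 0, and from -0.14 to 0.43 in nSyb neurons with 15 above 0. Their highest were *Or67a* in NSCs, *Or92a*, the receptor for diacetyl, in elav neurons, and *Or49b* in nSyb neurons.

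Genes that work with the receptors had lower medians than the family in NSCs and elav neurons and a closer one in nSyb neurons, and no difference was tested. *Orco* had 0.04 in NSCs, 0.00 in elav and -0.04 in nSyb neurons, at percentiles 63.1, 42.8 and 43.1. The 8 co-receptor and perireceptor genes, including the odorant-binding protein gene *lush* and the odorant-degrading esterase gene *Jhedup*, had medians of -0.03, -0.04 and 0.11. Of these 8, 3 were above 0 in NSCs (48.4% of protein-coding genes), 4 in elav neurons (57.7%) and 5 in nSyb neurons (49.5%). *Jhedup* was the highest in elav neurons at 0.42 and *Obp83a* the lowest at -0.34.

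The 11 transcription factor and chromatin genes that set up olfactory neurons or choose their receptor had medians of -0.12, -0.29 and 0.08. In NSCs 1 of 11 was above 0 (48.4% of protein-coding genes), in elav neurons 1 (57.7%), and in nSyb neurons 8 (49.5%). Spans in this list ran from 786 bp (*amos*) to 68791 bp (*pdm3*), where the members had a median of 1462 bp. Whole-span values of genes so unlike in length are not directly comparable. Among them *acj6*, a POU factor for receptor choice, had -0.16, -0.29 and 0.02. The proneural gene *ato* had -0.07, -0.68 and 0.15, the lowest of the list in elav neurons, and *onecut* had -0.19, -0.46 and -0.55, the lowest in nSyb neurons. The highest in nSyb neurons was *sim* at 0.21.

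The other chemoreceptor families had medians of like size, and no difference from the odorant receptor genes was tested. The 60 gustatory receptor genes had medians of 0.13 in NSCs, 0.16 in elav and 0.23 in nSyb neurons, with 55, 51 and 51 above 0. The 60 ionotropic receptor genes had 0.12, 0.15 and 0.17, with 51, 45 and 50 above 0. The percentile was lowest in elav neurons for 32 of the gustatory and 28 of the ionotropic receptor genes. Genes above 0 in all 3 tracks made up 66.7% of each of these families and 59.3% of the odorant receptor genes. A scaled value over 1 in every track was found for 15.0% of gustatory, 13.3% of ionotropic and 10.2% of odorant receptor genes. Both families were also higher than their flanks. The median excess was 0.12, 0.09 and 0.16 for gustatory and 0.09, 0.07 and 0.11 for ionotropic receptor genes.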

How the data were processed

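Cap-G binding was profiled by Targeted DamID in 12 samples (2 Cap-G-Dam and 2 Dam-only for each of *wor-GAL4*, *elav-GAL4* and *nSyb-GAL4*). The authors mapped reads with Bowtie2 to BDGP6, binned them by GATC fragment and deposited log2 Cap-G-Dam/Dam values as 1 track per driver, the average of its replicates. The averaging method and tool versions were not given in the sources used here. Tracks were normalised separately, and depth per sample and replicate spread are not in the averages, so no test was made. The 12 RNA-seq samples were not analysed here.

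Gene spans came from a RefSeq table of Release 6 with neither strand nor exons (17684 genes on 6 arms). Gene values, percentiles and scaled values were computed as given above. Bound regions were runs of at least 2 fragments above 0 and above quantile 0.80, 0.85, 0.90, 0.95 or 0.99 of the averaged track, at an FDR of 0.01% from the number expected for fragments in random order. This follows the threshold of the study but not its program, which ran on each replicate. A fragment that crosses a gene's edge counts in the gene and in its flank. The gene values returned the known values set in simulated data. The caller was run on runs planted in tracks with fragments in random order. Neighbouring fragments of the real tracks often have like values, so this does not test its FDR on them.

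The members, gene lists and alternatives were chosen with earlier results of these data known. Named genes were all members of tandem clusters, the 5 highest and 5 lowest members of each track, the 3 largest differences of the scaled value in each direction between tracks, members with a region within 5 kb, *Orco*, and the highest and lowest genes of each pathway list. Genes outside this rule that are named as examples were chosen after their values were seen. The alternatives changed the gene value, its span, the fragments and members used, the scaling and the caller. Members that overlap no other gene, and the family without *Or19a* and *Or19b*, were alternatives chosen after seeing the data. Analyses used Python 3.11.15, numpy 2.4.6, pandas 2.3.3 and matplotlib 3.10.9.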

Additional observations from a re-analysis of the deposited data

How the results depend on the processing

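No paired analysis was possible because each driver has 1 track averaged over replicates, and for the same reason no replicate could be left out. The number of members above 0 kept within 1.5 times its value in 42 of 42 alternatives. This limit is wide and does not fix the counts closely. The median scaled differences between tracks kept their sign and moved within a tolerance of 0.25 in 51 of 51. That tolerance is larger than the differences of 0.21 (nSyb minus elav neurons) and -0.17 (nSyb neurons minus NSCs). It therefore cannot show that these kept their size. The median log2 ratio moved by over 0.05 in 5 of 42. In NSCs it was 0.076 with the unweighted median of the fragments, 0.062 with 1 kb added on each side and 0.0292 with 5 kb added. With 5 kb added it was 0.0608 in elav neurons and 0.0309 in nSyb neurons. By construction, a wider span brings in flanks near 0. With an FDR of 1% the bound members numbered 11 in NSCs, 6 in elav and 20 in nSyb neurons. They numbered 1 in NSCs and 3 in nSyb neurons with quantiles 0.90 to 0.99, with no share of all genes beside them, and the cause was not tested. Of 570 values of single named members, 411 stayed, 155 moved by over 0.1 and 4 were counted as changing sign. These were *Or43a* in NSCs (-0.066), *Or83a* in NSCs (-0.0919) and *Or85b* in nSyb neurons (-0.0225) with 5 kb added, and *Or43a* in elav neurons (0.0745) with the unweighted median. All 4 had a scaled value over 1 or under -1, and sign changes of members nearer the median of all genes are not in this count. *Or45b* in nSyb neurons (0.12, with flanks at -0.22) also falls below 0 with 5 kb added. *Or30a*, *Or33a*, *Or85b* and *Or94b* rest on fewer than 5 fragments and are the least certain.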
